A study of Homo sapiens with 2 samples.

Results

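MiR-204 and miR-211 are a pair of microRNAs (miRNAs) with the same seed, each encoded in an intron of a TRPM gene. They were described here in A375 cells, an established human melanoma line. Rows were taken whose precursor was hsa-mir-204 or hsa-mir-211, both arms where listed. This gave 3 mature miRNAs (hsa-miR-204-5p, hsa-miR-204-3p and hsa-miR-211-5p, written below without the species prefix) from 2 hairpins, of 1497 mature names and 1095 hairpins in all. MiR-211-3p, the other arm of mir-211, had no row and so no value. The study measured miRNAs by small RNA sequencing in 1 group, A375 cells seeded at 1000000 per 10 cm dish and, 24 h later, given the solvent DMSO for 48 h. The group had 2 libraries, which the labels call independent replicates. Nothing says that they came from separate cultures, so the difference between them may be technical. No other condition was compared, and no p-value below speaks of a treatment.

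A miRNA guides an Argonaute protein to messenger RNAs that pair with its seed, bases 2 to 8 from its 5′ end, and represses them. TRPM1 and TRPM3 encode cation channels of one family. TRPM1 is a gene of melanocytes and retinal bipolar cells that is switched on in the pigment lineage by the transcription factor MITF, and miR-211 is made from its transcript. MiR-211 is known as an abundant miRNA of melanocytes that is lost in many melanomas, and miR-204 as a miRNA of the retinal pigment epithelium, lens and choroid plexus.

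The mature sequences show how close the pair is, and are given 5′ to 3′ with the seed in capitals, from RefSeq (GRCh38.p14).
miR-204-5p: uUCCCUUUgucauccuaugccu
miR-211-5p: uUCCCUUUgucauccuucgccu
miR-204-3p: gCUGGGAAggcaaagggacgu
miR-211-3p: gCAGGGACagcaaaggggugc

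The 5p arms were identical at 20 of 22 positions. Counted from the 5′ end of miR-204-5p, they differed by A17U and U18C, so that the first 16 bases, the seed among them, were shared. A read that ends before position 17 cannot be given to either of them. The 3p arms differed at 6 of 21 positions (U3A, A8C, G9A, A18G, C19U and U21C, from miR-204-3p to miR-211-3p), of which U3A and A8C lie in the seed. The 3p arms therefore do not share a seed. Among the RefSeq mature sequences, 2 carried the 5p seed, miR-204-5p and miR-211-5p. MiR-623 shared bases 2 to 7 with them and had no row in the table.

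The hairpins are shown with both mature arms in capitals, to show where the arms lie in each.
MIR204: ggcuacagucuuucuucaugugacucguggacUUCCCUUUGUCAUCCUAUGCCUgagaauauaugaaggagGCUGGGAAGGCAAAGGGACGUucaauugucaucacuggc
MIR211: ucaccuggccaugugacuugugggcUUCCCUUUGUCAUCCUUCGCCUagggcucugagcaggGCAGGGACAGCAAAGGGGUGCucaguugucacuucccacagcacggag

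Each hairpin is 110 bases long, and 41 single-base edits separate them. The arms are joined by 17 bases in MIR204 and by 15 in MIR211. The GC content was 48.2% for MIR204 and 59.1% for MIR211. RNAfold gave minimum free energies of -42 kcal/mol for MIR204 and -45.5 kcal/mol for MIR211. Per base, MIR204 was predicted to be more stable than 20.8% and MIR211 than 31.8% of the 866 hairpins in the table that had a sequence.

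In GRCh38, MIR204 lies on the minus strand at chr9:70809975-70810084. With the GENCODE 29 annotation it is in an intron of TRPM3 (ENSG00000083067.22, chr9:70529063-71446904, minus strand) in 13 of 16 annotated transcripts. In the transcript with the most exons, 26, the hairpin sits between exons 6 and 7, in an intron of 43567 bases and 17762 bases from exon 6. MIR211 lies on the minus strand at chr15:31065032-31065141, in an intron of TRPM1 (ENSG00000134160.13, chr15:31001061-31161273, minus strand) in 8 of 12 transcripts. In its transcript with the most exons, 28, it sits between exons 7 and 8, in an intron of 2783 bases and 934 bases from exon 7. Both hairpins have the orientation of their host, and neither host holds another annotated miRNA gene.

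Values are in RPM, reads per 1000000 read assignments of the deposited table. There were 10816826 read assignments in replicate 1 and 15428446 in replicate 2, so that 1 read was worth 0.0924 and 0.0648 RPM, and a count of 0 allows up to 0.277 and 0.194 RPM. Intervals are exact and, because PCR can copy a molecule many times, cover counting error only.

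MiR-204-5p was the abundant member. It had 29920 reads in replicate 1, or 2766 RPM (95% Poisson interval 2735 to 2798), and 38534 reads in replicate 2, or 2498 RPM (2473 to 2523). The libraries lay close together, replicate 1 being 1.11 times replicate 2. The mean was 2632 ± 190 RPM (SD, n = 2), or 0.338% ± 0.0266 of all RPM after copies of a mature name were reduced to 1 value. MiR-204-5p stood at rank 43 of 1497 mature names by mean, at 43 in replicate 1 and at 44 in replicate 2.

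MiR-204-3p, the opposite strand of the same hairpin, was a minor product. It had 51 reads in replicate 1, or 4.71 RPM (3.51 to 6.20), and 47 reads in replicate 2, or 3.05 RPM (2.24 to 4.05). Its mean of 3.88 ± 1.18 RPM (SD, n = 2) put it at rank 452, below the 10 RPM in both libraries used here as the limit for an expressed miRNA.

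MiR-211-5p was near the limit of counting. It had 3 reads in replicate 1, or 0.277 RPM (0.0572 to 0.811), and 2 reads in replicate 2, or 0.130 RPM (0.0157 to 0.468). Its mean was 0.203 ± 0.104 RPM (SD, n = 2), rank 1004. It shared its exact value with other names, 79 names having 3 reads in replicate 1 and 104 having 2 reads in replicate 2, itself included. In all, 160 mature names had 1 to 3 reads in both libraries. The table holds no read sequences, so whether these few reads came from the MIR211 locus was not tested.

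**Figure D1:**
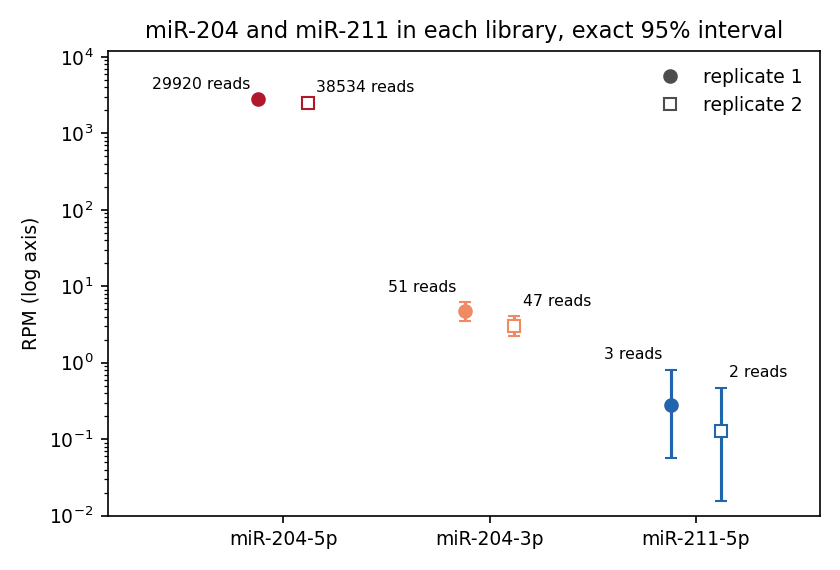
Level in RPM (log axis) of miR-204-5p, miR-204-3p and miR-211-5p in replicate 1 (filled circles) and replicate 2 (open squares), with exact 95% Poisson intervals and the reads behind each point. The 3 miRNAs occupy separate ranges, from 2766 and 2498 RPM for miR-204-5p down to 0.277 and 0.130 RPM for miR-211-5p, and the intervals widen as reads become few.

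The ranges of the 3 miRNAs over the libraries did not overlap, and they came in the same order in both. The order was not tested over libraries, and the intervals describe single libraries. In bulk RNA, fewer cells that make a miRNA and less of it per cell cannot be told apart.

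In the order of levels, miR-204-5p stood between miR-98-5p, a let-7 relative (2686 ± 86.0 RPM), and miR-101-3p, a repressor of EZH2 (2496 ± 397 RPM). Its range over the libraries overlapped both of theirs. The next names outward were miR-30c-5p above (2997 ± 241 RPM) and miR-148b-3p below (2248 ± 335 RPM), and their ranges did not overlap that of miR-204-5p. In all, the ranges of 4 names, at ranks from 40 to 50, overlapped that of miR-204-5p, and its place among these was not resolved.

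**Figure D2:**
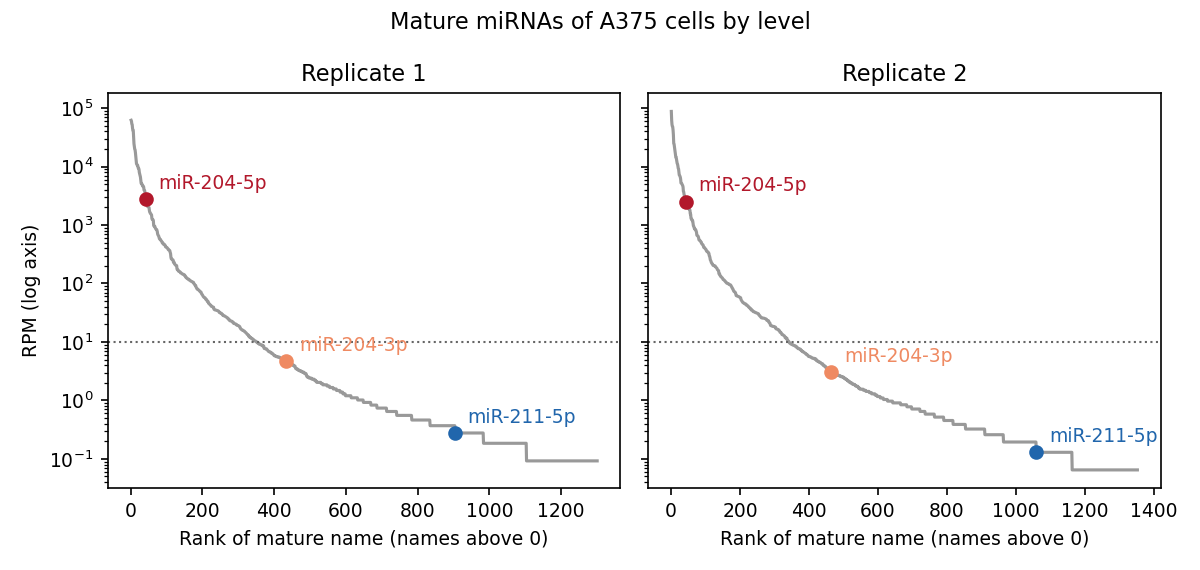
RPM (log axis) of every mature name above 0 against its rank, in replicate 1 (left) and replicate 2 (right), with a dotted line at 10 RPM. MiR-204-5p sits on the steep left part of the curve at ranks 43 and 44, and miR-211-5p at ranks 905 and 1059 on the steps made by single reads.

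Within the shared seed, miR-204-5p made up nearly everything. In replicate 1 the ratio of miR-204-5p to miR-211-5p was 9973 (95% interval from the exact binomial, 3412 to 48364), and in replicate 2 it was 19267 (5333 to 159099.5). The intervals overlap and are wide because they rest on 3 and 2 reads of miR-211-5p. Over both libraries there were 68454 reads of miR-204-5p and 5 of miR-211-5p, a ratio of 13691 (5866 to 42166). On the log2 scale with a pseudocount of 1 RPM, the difference between the pair was 11.10 ± 0.02 (SD, n = 2), which understates it because miR-211-5p lies below the pseudocount. The pseudocount also hides most of the spread, since the ratios of reads were 9973 and 19267. MiR-204-3p, although the minor strand of its own hairpin, was also higher than miR-211-5p, with 17 times its reads in replicate 1 (5.50 to 85.2) and 23.5 times in replicate 2 (6.15 to 199.7).

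RefSeq gave a mature sequence for 1317 of the 1497 names (88.0%), and these carried 1095 different seeds. Of the 335 expressed names, 300 had a sequence. Abundant names such as miR-30d-5p had none and added nothing to the sum of their seed. The ranks and shares of seeds given here therefore hold for matched names only, and the rank over all names was not determined. By summed RPM of matched names the seed of miR-204-5p and miR-211-5p ranked 26, at 2632 RPM. Among 25 seeds with at least 2 listed names and 1000 RPM or more, the highest name held a median of 80.4% of its seed. MiR-204-5p held 99.99%. By this share the seed was number 3 of the 25, after those of miR-423-5p and miR-21-5p.

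Among matched names, few miRNA pairs this alike in sequence were so far apart in level. There were 36 pairs of matched names that differ at 1 or 2 bases, aligned at the 5′ end and at most 1 base apart in length, with the higher at 1000 RPM or more. The lower name reached a median of 3.68% of the higher one. Abundant names without a sequence, such as miR-30d-5p, could not enter, so the median and the places below hold for matched names only. MiR-211-5p stood at 0.00773% of miR-204-5p, number 3 from the lowest. The lower ones were miR-378h, at 0.00356% of miR-378a-3p, and miR-23c, at 0.00744% of miR-23a-3p. In replicates 1 and 2, miR-378h had 2 and 1 reads, miR-23c 2 and 2, and miR-211-5p 3 and 2. The order of these 3 pairs was therefore not resolved. A name without a row could not enter as the lower of a pair. MiR-99a-5p, which differs from the most abundant miRNA, miR-100-5p, at 1 base, stood at 0.0549% of it. Several names recur in these pairs, so they are not independent of each other.

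The pair also has counterparts, same-seed miRNAs that lie in introns of related host genes. Among matched names there were 6 such pairs, counting distinct names in same-strand introns of protein-coding genes whose symbols share their first 4 letters. The mean RPM of miR-204-5p was 12934 times that of miR-211-5p. Over the other 5 pairs, from 4 groups of hosts, the ratio of means ran from 7.04 to 13.1. The nearest was miR-148b-3p in COPZ1 (2248 ± 335 RPM) over miR-152-3p in COPZ2 (172 ± 30.2 RPM). At the low end stood miR-103a-3p in PANK3 (4357 ± 852 RPM) over miR-107 in PANK1 (619 ± 118 RPM). MiR-103a-3p and miR-26a-5p each have 2 hairpins, so their values are not those of 1 host. With 6 pairs and 1 group of libraries this is a description, not a test.

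**Figure D3:**
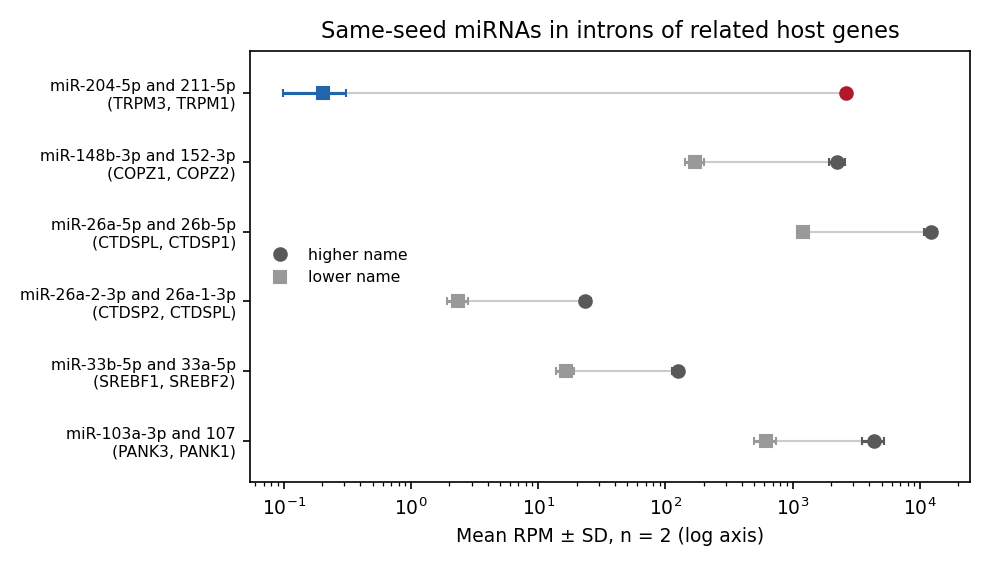
Mean RPM ± SD (n = 2 libraries, log axis) of the higher (circle) and lower (square) name of each same-seed pair in introns of related host genes, hosts in brackets. The miR-204-5p and miR-211-5p pair (coloured) spans 12934-fold, and the other 5 pairs span 7.04-fold to 13.1-fold.

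GENCODE 29 named 1094 of the 1095 hairpins, and 506 lay in an intron of a protein-coding gene on the same strand. The median of their summed arms was 0.646 RPM, with 285 under 1 RPM and 31 at 1000 RPM or more. With 2636 RPM over both arms, mir-204 was number 22 among these 506, above 95.7% of them. MiR-211-5p, its hairpin's only listed arm, put mir-211 at number 357, above 29.2% of them. The hosts' own transcripts were not measured in these libraries.

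The hairpin mir-204 gave almost only its 5p strand. The ratio of 5p to 3p reads was 587 in replicate 1 (446 to 788) and 820 in replicate 2 (616 to 1116). The intervals overlapped. The 3p strand made up 0.170% of the reads of both arms in replicate 1 (exact binomial interval 0.127% to 0.224%) and 0.122% in replicate 2 (0.0895% to 0.162%). On the log2 scale with 1 RPM added, 5p exceeded 3p by 9.09 ± 0.25 (SD, n = 2).

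Among the 137 hairpins that list both arms and average 100 RPM or more over their sum, mir-204 was number 12 toward the 5p arm and number 16 in one-sidedness either way. The median absolute log2 ratio was 5.55. The 5p arm was over 2-fold higher in both libraries in 80 hairpins, the 3p arm in 47, and neither in 10. Copies of a hairpin that share an arm are counted separately here. The hairpins nearest to mir-204 in arm ratio were mir-345 (9.10 ± 0.09), mir-26a-2 (8.96 ± 0.03) and let-7f-1 (8.88 ± 0.12). Of these, mir-345 reached its ratio at lower levels than mir-204, with 913 ± 64.1 RPM on its 5p arm and 0.675 ± 0.222 RPM on the 3p arm. That 3p arm lies below the 1 RPM pseudocount, which lowers the ratio of mir-345 more than that of mir-204. The nearness of these hairpins therefore depends on the pseudocount.

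The ratio of 5p to 3p reads was compared between the libraries for all 137 hairpins with a two-sided Fisher's exact test and Benjamini-Hochberg adjustment. Under this test 59.1% of hairpins had an adjusted p under 0.05. Mir-204 did not (Fisher's exact p = 0.103, adjusted p = 0.154). With 0.5 reads added to each arm, its log2 ratio in replicate 1 minus that in replicate 2 was -0.48. Its 3p reads were few. The median absolute change, computed in the same way, was 0.33, and 52 hairpins changed by more than mir-204.

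In strand selection Argonaute is known to favour an arm that begins with U, and the mir-204 arms begin with U (5p) and G (3p). Both arms had a sequence in 119 of the 137 hairpins. The higher arm began with U in 79 of them (66.4%), and the lower arm in 23 (19.3%). The lower arm began with G in 14, and the combination found in mir-204, U on the higher and G on the lower arm, occurred in 9. The part of the first base in the arm ratio was not tested.

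**Figure D4:**
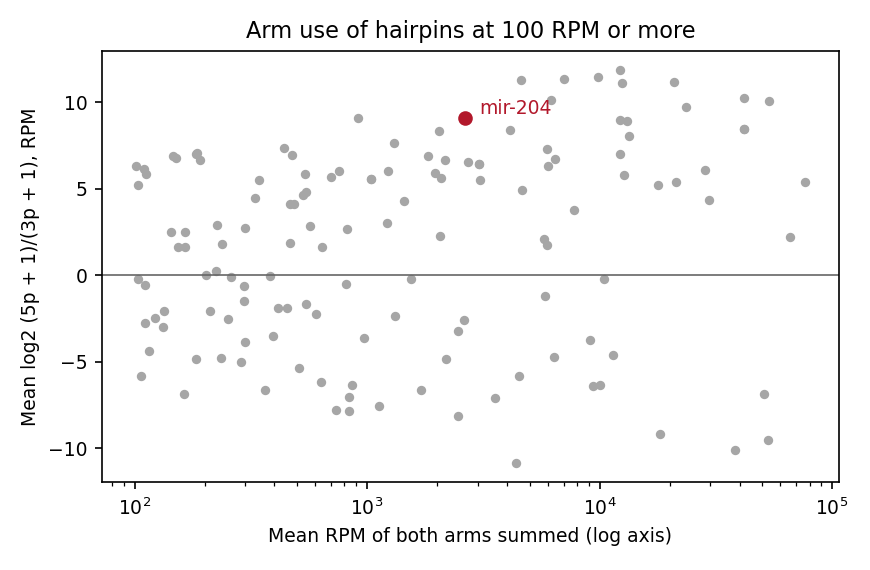
Mean log2 ratio of 5p to 3p, with 1 RPM added to each, against the summed mean RPM of both arms (log axis), for 137 hairpins. Points above 0 favour the 5p arm, and mir-204 (coloured) lies at 9.09, number 12 from the top.

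The difference between the libraries was the one available measure of error, and each miRNA's reads were compared by Fisher's exact test (two-sided). This test compares 1 library with the other and allows for counting error only, as does the arm test above, so small p-values do not speak of spread between samples. A miRNA was called at an adjusted p under 0.05 and a fold above 2. Of 869 mature names with at least 10 reads in sum, 4.60% were called (3.34% or 29 names higher in replicate 1, and 1.27% or 11 names higher in replicate 2), and with no limit on the fold 34.5% had an adjusted p under 0.05. After scaling by the median ratio of expressed names, the split was 23 against 15. Of the members, 0 of the 2 tested were called, although both had an unadjusted p under 0.05.

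MiR-204-5p was 1.11-fold higher in replicate 1 (log2 difference 0.15, p = 5.4e-40, adjusted p = 6.3e-39 in Fisher's exact test). With so many reads, even a small difference gives a small p. Across names at 10 RPM or more in both libraries the median log2 difference was itself 0.10. After scaling by this median ratio miR-204-5p differed by 0.04, with an adjusted p of 4.2e-04 in Fisher's exact test. Of the 47 names at 1000 to 10000 RPM, 12 differed less than miR-204-5p, and their median absolute log2 difference was 0.24. MiR-204-3p was 1.55-fold higher in replicate 1 (log2 difference 0.63, p = 0.031, adjusted p = 0.083 in Fisher's exact test), above the median of 0.36 among 287 names at 1 to 10 RPM, of which 209 differed less. MiR-211-5p, with 5 reads in sum, was below the minimum for this test. Its difference, 3 reads against 2, lay close on the log2 scale to the median of 1.07 among 864 names under 1 RPM.

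Markers of the melanocyte lineage were set beside the pair, from lists chosen with earlier results of these data known. Of 6 names, 5 reached 10 RPM in both libraries and miR-211-5p did not, against 22.4% of all mature names. The list includes miR-204-5p itself and was chosen with results known, so this share is no test of enrichment. MiR-204-5p had the highest mean and was the highest in replicate 1. MiR-146a-5p, a brake on NF-κB signalling (1551 and 2527 RPM), was slightly above it in replicate 2, so that their order was not resolved. Next came members of an X-linked melanoma cluster, miR-509-3p (264 and 298 RPM), miR-508-3p (142 and 95.8 RPM) and miR-514a-3p (52.8 and 101 RPM). The summed level of the 6 was 4776 RPM in replicate 1 and 5519 RPM in replicate 2.

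In a wider list of 21 melanocyte and melanoma miRNAs, 20 were matched to a row by name. Of these 20, 13 were expressed, with a median of 254 RPM beside 0.588 RPM over all mature names. The remaining entry, miR-203a, was listed without an arm and matched no row under that name. MiR-203a-3p did have a row, with few reads and under 10 RPM in both libraries. It was not counted here. Its mean was above that of miR-211-5p, so counting it would put miR-211-5p lower in the list and would change the median. By mean, miR-204-5p was number 6, below miR-21-5p (53854 ± 8314 RPM), the related miR-222-3p (9244 ± 187 RPM) and miR-221-3p (8458 ± 658 RPM), miR-182-5p (7040 ± 3.20 RPM) and miR-125b-5p (4551 ± 887 RPM). MiR-34a-5p, a target of p53 (510 ± 5.65 RPM), miR-196a-5p (366 ± 12.7 RPM) and miR-193b-3p (227 ± 3.84 RPM) were also expressed. MiR-211-5p was number 17 of the 20 matched names, with exactly the reads of miR-145-5p, a miRNA of smooth muscle. Below them stood miR-214-3p (2 reads in replicate 1 and 1 in replicate 2) and, lowest, the epithelial miR-205-5p (1 read in each).

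Of 9 miRNAs reported to target MITF, the factor that drives TRPM1, or sharing the seed of one that does, 7 were expressed, with a median of 443 RPM. They were led by miR-182-5p and miR-148a-3p (6153 ± 1425 RPM), which were above miR-204-5p, while miR-101-3p, miR-148b-3p, miR-340-5p (443 ± 120 RPM), miR-152-3p and miR-218-5p (42.9 ± 2.22 RPM) had lower means. MiR-101-3p was above miR-204-5p in replicate 1 (2777 against 2766 RPM), and their order was not resolved. MiR-155-5p (1.18 ± 0.293 RPM) and miR-137 (0.472 ± 0.117 RPM), the lowest, stood under 10 RPM but above miR-211-5p. MITF itself was not measured.

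Among 8 miRNAs of the eye and pigment epithelium, 7 had a row and 5 were expressed. MiR-204-5p was number 2, after miR-182-5p and above miR-9-5p (1018 ± 91.0 RPM). The photoreceptor cluster members miR-183-5p (532 ± 166 RPM) and miR-96-5p (51.1 ± 9.12 RPM) followed. The lens and cornea miRNA miR-184, the lowest, had 2 reads in replicate 1 and 1 in replicate 2, and miR-124-3p had no row.

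Markers of other cell types stood beside these as follows. Of 4 neural names, miR-124-3p had no row and the other 3 were expressed, miR-9-5p, miR-128-3p (895 ± 28.9 RPM) and miR-218-5p, and they summed to 1869 RPM in replicate 1 and 2042 RPM in replicate 2. Of 5 blood names, 4 had a row and miR-223-3p had none. MiR-486-5p (186 ± 20.7 RPM) was expressed, while miR-142-5p (2.21 RPM) and miR-142-3p (0.347 RPM) were not. The lowest, miR-451a, had 1 read in replicate 1 and 0 in replicate 2. The 6 epithelial names summed to 54.3 and 70.3 RPM, with miR-200b-3p (28.8 ± 3.66 RPM) and miR-141-3p (19.4 ± 5.36 RPM) expressed. Their part in the level of miR-204-5p was not tested.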

How the data were processed

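Small RNA sequencing of 2 A375 libraries (1 group) was analysed. The authors deposited RPM per hairpin, mature name and library, with decimal commas, each column summing to 1000000. CASAVA 1.8 and cutadapt 1.2.1 are named, with no role, per the submitters' processing notes. The aligner, annotation release, genome build and rule for multiply matching reads were not given in the sources used here. Columns were matched by the sample descriptions, and 0 other value columns were present.

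All values were whole multiples of the smallest in their column (100% within 0.01 reads), so reads were recovered. Names on several hairpins were reduced to their highest copy (77.6% and 78.3% of the deposited total). The members each have 1 hairpin. Computation used Python 3.11.15, NumPy 2.4.6 and SciPy 1.17.1. Fisher's exact test covered all names with at least 10 reads in sum, adding 0.5 reads for folds, and was tested on simulated data. The simulated libraries had counting error only, so they do not show how the test behaves under any further spread between libraries. Intervals are 95% exact Poisson or Clopper-Pearson. Log2 ratios of miRNAs or arms within a library used 1 RPM as pseudocount. Changes of the arm ratio between libraries used 0.5 added reads.

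Sequences came from RefSeq (GRCh38.p14), matched by name, and hosts from GENCODE 29 (GRCh38). Names without a matched sequence were left out of the comparisons of seeds, near-identical pairs and related hosts. Folding used RNAfold 2.7.2. The members, lists and the rule for names (members, names sharing the seed, neighbours in level and arm ratio, list extremes and expressed list members) were chosen with earlier results of these data known. The comparisons with near-identical pairs, related hosts and first bases, and the arm test between libraries, were added after the data were seen, and names in them were chosen after their values were seen. Alternatives were other scalings, pseudocounts, read minima, fold limits, summed copies and leaving out each replicate.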

Additional observations from a re-analysis of the deposited data

How the results depend on the processing

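Of 79 alternative values for 21 results, 59 were counted as unchanged and 0 as reversed. The unchanged ones kept their direction, and moved by no more than the SD between replicates or stayed on the same side of the limits. Leaving out a replicate always moves a mean of these libraries by less than their SD. Levels, shares and log2 ratios were therefore bound to count as unchanged at that step. Levels, ranks, shares and counts cannot change sign, so they could not reverse. For these, both counts are no test of robustness. Scaling to the total after names were reduced to 1 copy put miR-204-5p at 3379 RPM. Its rank was 43 to 44 when either replicate was left out, 44 with copies summed and 42 without the most abundant name. Its share was 0.263% with copies summed and 0.373% without the most abundant name. With a pseudocount of 0.1 RPM the log2 ratio was 9.40 between the arms of mir-204 and 13.12 between miR-204-5p and miR-211-5p, and with 10 RPM it was 7.57 and 8.01. The arm rank of mir-204 was then 17.

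The names called between the libraries numbered 6 with a mean of 10 RPM or more, 81 with a fold above 1.5 and 300 with no limit on the fold, under which miR-204-5p passed (log2 difference 0.15). With no minimum of reads, miR-211-5p had an adjusted p of 0.716 in Fisher's exact test. Leaving out a replicate put the shared seed at rank 26 to 27 among seeds of matched names (27 with copies summed). Leaving out a replicate also put miR-211-5p at number 2 to 3 among near-identical pairs and mir-204 at number 23 to 24 among intronic hairpins. The ratio of miR-204-5p to miR-211-5p was 9973 to 19267 by the same step. The alternatives on near-identical pairs, seeds, intronic hairpins, arm ranks and the RPM limit were chosen after seeing the data. No paired analysis was possible because there is 1 group. The level of miR-211-5p is limited by counting, and a difference between the libraries needs 2 samples, so leaving 1 out gave no test.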
